A study of Mus musculus with 12 samples.

Results

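The genes described here make and use glutathione or belong to the antioxidant programme of the transcription factor NRF2. They are Slc7a11, Gclc, Gclm, Nfe2l2, Nqo1, Txnrd1, Srxn1, Gpx1, Gpx3 and Gpx4, 10 of the 24499 gene symbols in the deposited count table. They were taken by name for their roles in cystine uptake, glutathione synthesis, NRF2 control and peroxide removal, with earlier results of these data known. All 10 had a row, and 9 had enough reads to be tested.

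Cells came from APOE-KO mice, in which the gene of apolipoprotein E is knocked out, and from wildtype mice (C57BL6). Mice of both genotypes carried an E0771-cOC tumour, E0771 being a mammary carcinoma line of the mouse. The lymph nodes draining it were taken on day 9 after injection. The nodes were minced, digested, and enriched for cells carrying CD11c, the integrin encoded by Itgax that marks dendritic cells and some macrophages. RNA was sequenced from the 3' end in 6 APOE-KO and 6 wildtype libraries. The sources used here do not give the age or sex of the mice, how the knockout allele was made, whether nodes were pooled, or whether each library is a separate animal. The p-values therefore measure the spread between these libraries, which may be technical.

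Glutathione is the main small thiol of the cell. Its synthesis depends on cysteine, which many cells import as cystine through the exchanger encoded by Slc7a11, and on glutamate-cysteine ligase, a pair of a catalytic subunit (Gclc) and a modifier subunit (Gclm). Glutathione peroxidases spend glutathione to reduce peroxides: Gpx1 acts on soluble peroxides in the cytosol, Gpx3 is secreted, and Gpx4 reduces peroxidised lipids within membranes and thereby restrains ferroptosis. NRF2, encoded by Nfe2l2, is held down by KEAP1 in resting cells, and under oxidative or electrophilic stress it binds antioxidant response elements beside genes such as Gclc, Gclm, Nqo1, Txnrd1, Srxn1 and Slc7a11. Slc7a11 is also induced by ATF4, the transcription factor of amino acid stress, through C/EBP-ATF composite elements.

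Sequence at the gene starts is shown for the members that passed the test, Slc7a11 and Gpx3, and for each member whose promoter holds an antioxidant response element core. RefSeq's table for GRCm38.p6 held 14 promoters of 9 members, each running from 250 bases before to 50 bases after a start, and no entry for Gclc. The antioxidant response element core was searched as TGACNNNGC and the C/EBP-ATF element as TGATGNAA, each on both strands. The core occurred in 12.4% of all 32851 promoters of that length and the C/EBP-ATF letters in 3.97%. A match is a run of letters and not a shown binding site. Capitals mark the matches, and every sequence reads 5' to 3' along the gene's own strand.
Slc7a11 (chr3:50443564-50443863, minus strand): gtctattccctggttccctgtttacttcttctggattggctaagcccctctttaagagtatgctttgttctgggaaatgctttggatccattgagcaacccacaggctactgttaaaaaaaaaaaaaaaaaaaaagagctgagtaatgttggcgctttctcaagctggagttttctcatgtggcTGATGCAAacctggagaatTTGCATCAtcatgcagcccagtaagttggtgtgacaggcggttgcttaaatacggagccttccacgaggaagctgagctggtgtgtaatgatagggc
Gpx3 (chr11:54902604-54902903, plus strand, no match): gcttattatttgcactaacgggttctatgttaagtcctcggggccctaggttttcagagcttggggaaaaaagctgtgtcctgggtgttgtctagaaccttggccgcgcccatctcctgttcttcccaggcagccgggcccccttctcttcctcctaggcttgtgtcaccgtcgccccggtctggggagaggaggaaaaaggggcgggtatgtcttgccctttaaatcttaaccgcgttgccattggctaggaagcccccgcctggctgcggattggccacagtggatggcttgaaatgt
Gclm (chr3:122245407-122245447, plus strand): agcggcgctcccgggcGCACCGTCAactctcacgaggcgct
Txnrd1, one of its starts (chr10:82859098-82859138, plus strand): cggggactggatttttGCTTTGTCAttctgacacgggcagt
Srxn1 (chr2:152105536-152105573, plus strand): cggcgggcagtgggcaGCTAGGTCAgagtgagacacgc
Nfe2l2 (chr2:75704879-75704913, minus strand): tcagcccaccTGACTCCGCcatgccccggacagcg

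The Slc7a11 window held both matches to the C/EBP-ATF letters, one on each strand, at -66 to -59 and at -47 to -40, and no antioxidant response element core. It was the only member with C/EBP-ATF letters in this window. Gclm, Txnrd1, Srxn1 and Nfe2l2 each held 1 antioxidant response element core, while Slc7a11, Nqo1, Gpx1, Gpx3 and Gpx4 held none. The Srxn1 core lay after the start, at 29 to 37. Only the letters TGACNNNGC were searched, so related sites with other letters, before the start or after it, are not marked. The Nfe2l2 start used here was not found in a GENCODE vM21 transcript of that gene. NRF2 is also known to act through elements farther from the start, which these windows do not cover.

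Of the 9 tested members, 1 rose and 1 fell in APOE-KO cells. Slc7a11 rose about 2.01-fold and Gpx3 fell 5.42-fold, and 8 of the 9 had a positive log2 fold change. Among all genes, 1.08% of the 10714 tested genes were called higher and 0.411% lower at an adjusted p under 0.05 (edgeR's quasi-likelihood test, Benjamini-Hochberg over all tested genes). The median log2 fold change was 0.32 over the tested members and -0.02 over all tested genes, of which 47.2% had a positive one. Before adjustment 4 members were higher at a p under 0.05 (Slc7a11, Srxn1, Txnrd1 and Nfe2l2), where 6.27% of all tested genes were higher and 5.81% lower at that level. The members act in 1 pathway and share libraries, so they are not independent of each other. They were also chosen with earlier results of these data known, which the shares above do not allow for. In bulk RNA of this kind, a change in the share of cells of a type and a change in RNA per cell cannot be told apart.

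**Figure D1:**
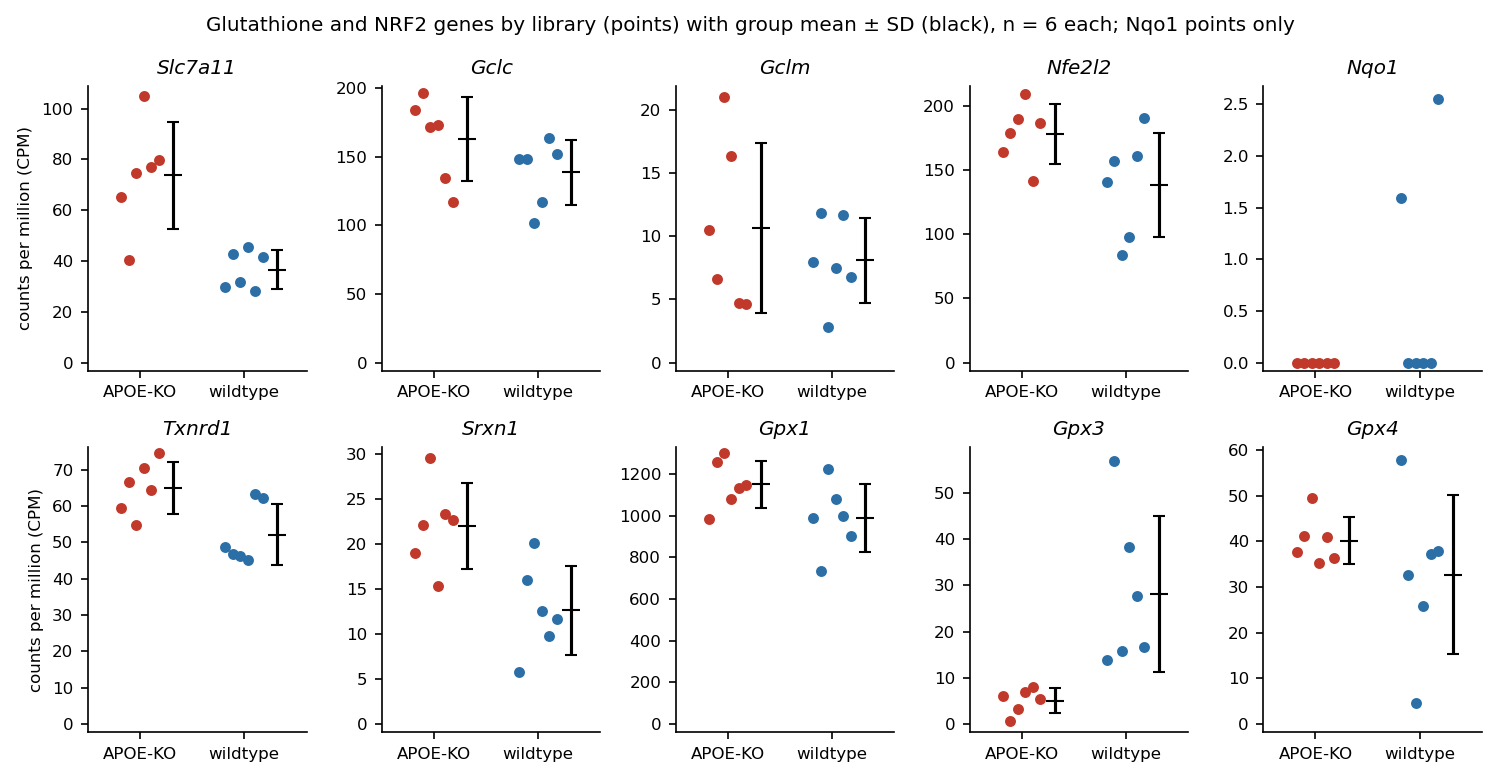
CPM of the 10 members in each library, APOE-KO on the left and wildtype on the right of each panel, with the mean and SD of 6 libraries beside the points (points alone for Nqo1). Slc7a11 lies at 40.5 to 105 CPM in APOE-KO libraries and 28.1 to 45.5 in wildtype libraries, and Gpx3 below 8 CPM in every APOE-KO library and above 13 in every wildtype one.

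Slc7a11, the cystine importer, lies on the minus strand of chromosome 3 from 49892526 to 50443614 (GRCm38). Its level ran from 40.5 to 105 CPM (the read count scaled to a common library size) in APOE-KO libraries with a median of 75.8, and from 28.1 to 45.5 CPM in wildtype libraries with a median of 36.8. In 5 of the 6 APOE-KO libraries it stood above every wildtype library, and APOE-KO library 2 was the one inside the wildtype range. The groups overlapped for that reason. The means were 73.7 ± 21.0 CPM in APOE-KO and 36.6 ± 7.55 CPM in wildtype (SD, n = 6 each), a log2 fold change of 1.01 ± 0.20 (SE; edgeR adjusted p = 0.00565).

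The 95% interval of that change ran from 1.52-fold to 2.66-fold. The estimate rested on 1695 reads in APOE-KO and 812 in wildtype libraries. Slc7a11 passed in all 24 alternative fits, with adjusted p between 0.000235 and 0.0315, and its lowest log2 fold change was 0.88, in a fit without 1 library. Fits that took the mean log2 CPM of the epithelial or of the macrophage marker list as a covariate gave 1.41 ± 0.29 and 1.61 ± 0.31 (SE). Long as the gene is, 5 short annotated genes lie within it, 2 of them on its strand, but none of the 50-base words in the last 400 bases of its coding transcripts occurred in a transcript of another gene.

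Slc3a2, which encodes the heavy chain that carries the Slc7a11 protein to the membrane, had a log2 fold change of 0.17 ± 0.12 (SE; adjusted p = 0.631 in edgeR's test); it was singled out after its values were seen. The genes whose centred log2 levels lay nearest to those of Slc7a11 over the 12 libraries were Mgll, Anxa3 and Rtp4. Mgll encodes monoglyceride lipase, Anxa3 an annexin, and Rtp4 an interferon-induced chaperone of receptors. Their root mean square distances to Slc7a11 were 0.264, 0.274 and 0.279 log2 units, where the median over 6307 genes was 0.669. That measure contains the genotype difference itself, and all 3 rose, with edgeR adjusted p of 0.0458, 0.00254 and 0.0226.

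Neither subunit of glutamate-cysteine ligase passed. Gclc, the catalytic subunit (chromosome 9, 77754535 to 77794485, plus strand), ran from 117 to 197 CPM with a median of 173 in APOE-KO, and from 102 to 164 CPM with a median of 149 in wildtype. The groups overlapped, with 4 APOE-KO libraries above the wildtype range and 2 wildtype libraries below the lowest APOE-KO value. Its means were 163 ± 30.7 and 139 ± 23.8 CPM in APOE-KO and wildtype (SD, n = 6 each), 1.18-fold with a 95% interval of 0.948 to 1.46 (edgeR adjusted p = 0.579). On 3621 reads in APOE-KO and 2939 in wildtype, the upper bound for Gclc lay below the lower bound of 1.52-fold for Slc7a11.

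Gclm, the modifier subunit (chromosome 3, 122245557 to 122270732, plus strand), was far less precisely measured, with 227 reads in APOE-KO and 165 in wildtype. It ran from 4.66 to 21.0 CPM with a median of 8.56 in APOE-KO, and from 2.80 to 11.9 CPM with a median of 7.74 in wildtype. APOE-KO libraries 3 and 4 were the high ones at 21.0 and 16.4 CPM, and APOE-KO libraries 5 and 6 the low ones at 4.73 and 4.66 CPM. The change was 1.31-fold with a 95% interval of 0.716 to 2.42 (edgeR adjusted p = 0.792). That interval holds both no change and a change of the size seen for Slc7a11.

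Nfe2l2, the gene of NRF2 itself (chromosome 2, 75675513 to 75704641, minus strand), had 141 to 209 CPM with a median of 183 in APOE-KO, and 83.4 to 190.5 CPM with a median of 149 in wildtype. Wildtype libraries 3 and 4 were low, at 83.4 and 97.8 CPM, and 1 APOE-KO library lay above the wildtype range. The means were 178 ± 23.4 and 138 ± 40.6 CPM (APOE-KO and wildtype, SD, n = 6 each). The change was 1.29-fold, with a 95% interval of 1.01 to 1.64, and edgeR gave an unadjusted p of 0.0407 and 0.386 after adjustment. NRF2 is controlled mainly through the stability of its protein, which RNA does not show.

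Srxn1, sulfiredoxin, restores overoxidised peroxiredoxins and is a well-known NRF2 target (chromosome 2, 152105516 to 152111376, plus strand). It ran from 15.3 to 29.5 CPM with a median of 22.4 in APOE-KO, and from 5.84 to 20.1 CPM with a median of 12.1 in wildtype. In 4 APOE-KO libraries it stood above the wildtype range, and wildtype libraries 2 and 3, at 15.95 and 20.1 CPM, lay inside the APOE-KO range. The change was 1.71-fold with a 95% interval of 1.16 to 2.52, on 491 reads in APOE-KO and 304 in wildtype. Its unadjusted p was 0.00907 and its adjusted p 0.200 (edgeR), and it passed in none of the 24 alternative fits, the lowest adjusted p being 0.0633. Among the members it had the second smallest p of those higher in APOE-KO.

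Txnrd1, the cytosolic thioredoxin reductase, is a selenoprotein and NRF2 target (chromosome 10, 82833951 to 82897712, plus strand). It ran from 54.8 to 74.6 CPM with a median of 65.5 in APOE-KO, and from 45.1 to 63.4 CPM with a median of 47.9 in wildtype. Wildtype libraries fell into a low 4 at 45.1 to 48.9 CPM and a pair, libraries 5 and 6, at 63.4 and 62.4 CPM within the APOE-KO range. The change was 1.25-fold with a 95% interval of 1.00 to 1.55 (unadjusted p = 0.0459, adjusted p = 0.401, edgeR).

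Nqo1, the quinone reductase that is often read as an NRF2 reporter (chromosome 8, 107388225 to 107403206, minus strand), was not usable here. The 6 APOE-KO libraries held 0 reads, which in one library allows up to 0.636 to 1.07 CPM by counting error. The wildtype libraries held 12 reads in all, 3 in library 1 and 9 in library 6. A two-sided exact permutation test of the mean CPM gave p = 0.455 over the 924 assignments. Nqo1 did not enter the test across genes, and no direction is drawn from it.

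**Figure D2:**
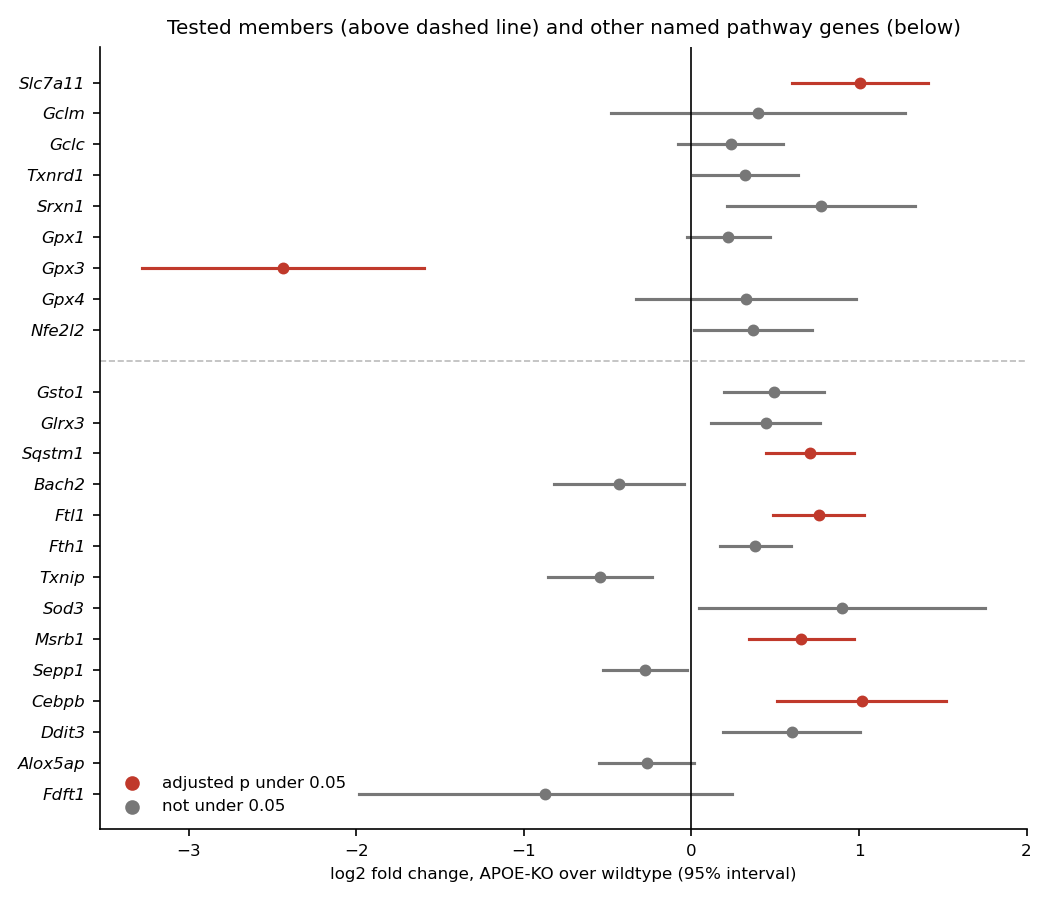
Log2 fold change, APOE-KO over wildtype, with 95% interval for the 9 tested members (above the dashed line) and for the other pathway genes named by rule (below it), red where the adjusted p was under 0.05. Among the members the intervals of Slc7a11, Srxn1, Txnrd1 and Nfe2l2 lie above 0 and that of Gpx3 below it, while Gpx3 and Slc7a11 alone passed after adjustment.

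Gpx3, the secreted glutathione peroxidase, was the 1 tested member with a negative log2 fold change (chromosome 11, 54902453 to 54910377, plus strand). It ran from 0.659 to 7.96 CPM with a median of 5.85 in APOE-KO, and from 13.8 to 57.0 CPM with a median of 22.3 in wildtype. Every APOE-KO library lay below every wildtype library. Gpx3 was the 1 member of 9 whose groups did not overlap, against 1.77% of all tested genes in either direction.

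Gpx3 also varied widely among wildtype libraries, with wildtype libraries 2 and 4 at 57.0 and 38.2 CPM and libraries 1, 3 and 6 between 13.8 and 16.7 CPM. Its means were 5.08 ± 2.698 CPM in APOE-KO and 28.2 ± 16.9 CPM in wildtype (SD, n = 6 each), on 122 and 611 reads. The log2 fold change was -2.44 ± 0.41 (SE; edgeR adjusted p = 0.00132), and the 95% interval ran from 3.03-fold to 9.70-fold lower. The call held in every fit without 1 library, with adjusted p up to 0.00678. Without wildtype libraries 1 and 3 and APOE-KO library 5, a set picked by hand, the log2 fold change was -2.89.

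In two-sided exact permutation tests, the marker sums of 4 other cell types were lower in APOE-KO at an adjusted p under 0.05. Macrophage and fibroblast sums did not pass but also had lower medians in APOE-KO (1106 against 1151 CPM, and 35.5 against 46.0 CPM). The 14 epithelial markers summed to 8.90 to 122 CPM in APOE-KO and 109 to 182 CPM in wildtype, and 1 of the 7 tested, Cdh1, fell. The 10 endothelial markers summed to 149 to 199.8 CPM in APOE-KO and 169 to 286 CPM in wildtype. Two-sided exact permutation tests gave p = 0.00649 for the epithelial sum and p = 0.0173 for the endothelial sum, each 0.0433 adjusted over the 10 marker lists. Plasmacytoid dendritic cell markers summed to 1100 to 1438 CPM in APOE-KO and 1363 to 3065 CPM in wildtype (p = 0.00866 in the same exact permutation test), and 4 of the 8 tested fell (Siglech, Klk1, Runx2 and Cox6a2). B cell markers summed to 569 to 731 CPM in APOE-KO and 691 to 936 CPM in wildtype (exact permutation p = 0.0130), and 1 of the 7 tested, Fcer2a, fell. Both p-values were 0.0433 after adjustment, and none of the markers in these 4 lists was at 0 in all libraries.

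**Figure D3:**
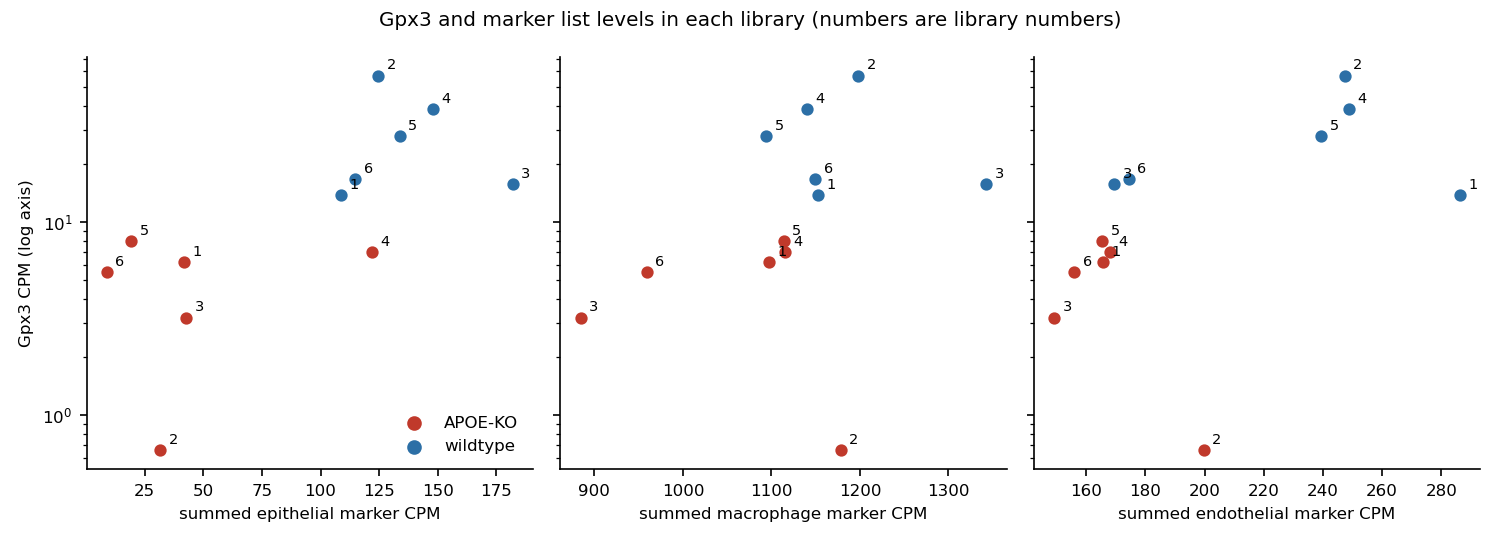
Gpx3 (CPM, log axis) against the summed CPM of epithelial, macrophage and endothelial markers in each of the 12 libraries, numbered within genotype, APOE-KO in red and wildtype in blue. APOE-KO library 4 has an epithelial sum of 122 CPM, within the wildtype range of 109 to 182. Its 6.99 CPM of Gpx3 is below all wildtype libraries and near the top of the APOE-KO range of 0.659 to 7.96.

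APOE-KO library 4 carried 122 CPM of epithelial markers, inside the wildtype range, with 6.99 CPM of Gpx3, which was below every wildtype library. That is 1 library, and its Gpx3 level was near the top of the APOE-KO range of 0.659 to 7.96 CPM. When the epithelial mean entered the fit, Gpx3 had a log2 fold change of -2.10 ± 0.72 (SE) and lost its call (edgeR adjusted p = 0.508). Macrophage markers summed to 884 to 1179 CPM in APOE-KO and 1094 to 1343 CPM in wildtype (two-sided exact permutation p = 0.0628, or 0.126 adjusted over the 10 lists), and of 12 tested Marco, Timd4, Mrc1 and Folr2 fell and C1qb rose, while Vsig4 was at 0 in all libraries. When the macrophage mean entered the fit, it was -1.26 ± 0.80 (SE; edgeR adjusted p = 0.927). Over all alternatives the adjusted p of Gpx3 ran from 5.52e-07 to 0.927. Each covariate was the mean log2 CPM of a list, not its sum, and its own difference between genotypes was not tested. The tests of the sums, which the epithelial sum passed and the macrophage sum did not, therefore do not describe these covariates. The SE of Gpx3 was 0.72 with the epithelial mean and 0.80 with the macrophage mean, against 0.41 without them. The part of epithelial, macrophage, endothelial, B cell or plasmacytoid dendritic cell RNA in the Gpx3 result was not tested.

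The genes nearest to Gpx3 in centred log2 level were Cd209b, Slc1a5 and Dab2, at distances of 0.626, 0.752 and 0.912 log2 units, where the median over 6308 genes was 1.51. Cd209b encodes a C-type lectin of lymph node and spleen macrophages, Slc1a5 a glutamine transporter and Dab2 an endocytic adaptor. This distance too contains the genotype difference itself, so a fall in such genes is partly built in. All 3 fell in APOE-KO and were 4.17-fold, 3.40-fold and 3.28-fold lower (edgeR adjusted p of 1.89e-06, 3.82e-06 and 0.000234).

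Gpx1, the cytosolic peroxidase, is a short gene on chromosome 9 (108338903 to 108340343, plus strand) and the best counted member, with 25768 reads in APOE-KO and 22540 in wildtype. It ran from 986 to 1299 CPM with a median of 1141 in APOE-KO, and from 736 to 1223 CPM with a median of 993 in wildtype. The groups overlapped, and 2 APOE-KO libraries lay above the wildtype range. The means were 1151 ± 114 and 988 ± 164 CPM (APOE-KO and wildtype, SD, n = 6 each), 1.16-fold with a 95% interval of 0.982 to 1.38 (edgeR adjusted p = 0.480).

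Gpx4, the lipid hydroperoxide reductase (chromosome 10, 80047166 to 80056439, plus strand), ran from 35.2 to 49.5 CPM with a median of 39.4 in APOE-KO, and from 4.55 to 57.9 CPM with a median of 34.9 in wildtype. The APOE-KO values were tight and lay wholly within the wildtype range. Wildtype library 3 held 26 Gpx4 reads at the greatest depth of all, 4898360 counts, while the other 11 libraries held 96 to 172. The change was 1.25-fold with a 95% interval of 0.794 to 1.98 (edgeR adjusted p = 0.764). The Gpx4 level is uncertain, because 87.4% of the 50-base words in the last 400 bases of its coding transcripts also occur in other annotated genes, Gpx4-ps2 and AC122253.3, and the sources used here do not say how reads with several matches were counted. No such word was shared for the other 9 members.

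The members did not vary as one block from library to library. After each was centred on its genotype mean, wildtype library 3 stood lowest, with 2 of 9 members above the mean and a median deviation of -0.42 log2 units. Wildtype libraries 2 and 5 stood highest at 0.25 and 0.26, each with 7 of 9 members above their genotype mean. Among APOE-KO libraries the median deviations ran only from -0.11 to 0.12. Wildtype library 3 was low in Gclm, Gclc, Gpx4 and Nfe2l2 but held the highest wildtype levels of Gpx1 and Srxn1.

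**Figure D4:**
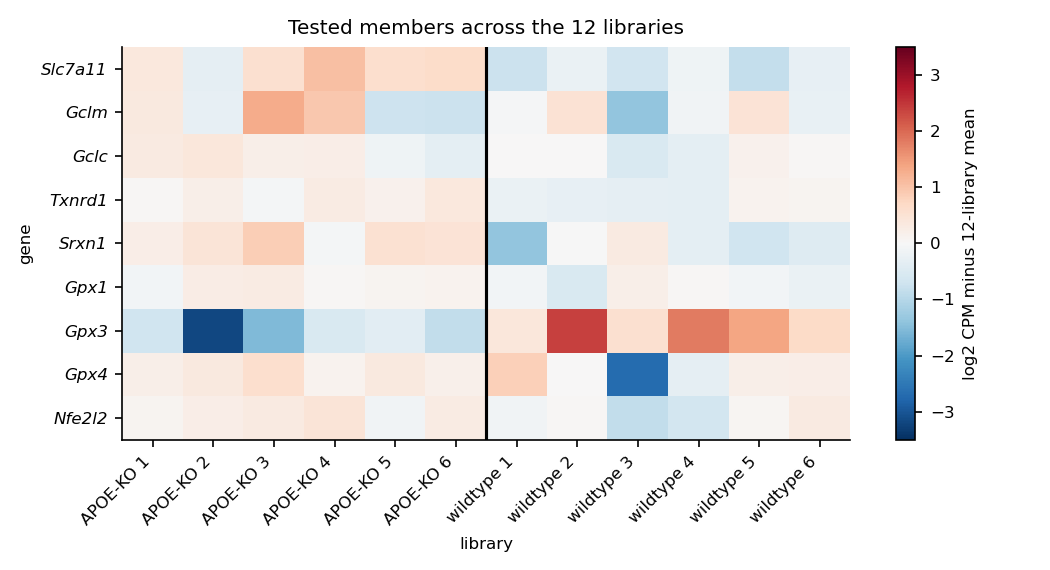
Log2 CPM of the 9 tested members in each library, APOE-KO left of the line and wildtype right of it, after subtraction of each gene's mean over the 12 libraries (red above, blue below). Slc7a11 is above its mean in 5 of 6 APOE-KO libraries and below it in all 6 wildtype libraries, and Gpx3 shows the opposite pattern in all 12.

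The spread differed with the gene. The coefficient of variation among APOE-KO libraries was 9.91% for Gpx1, 11.0% for Txnrd1, 12.8% for Gpx4 and 13.1% for Nfe2l2, against 63.3% for Gclm and 53.1% for Gpx3. Among wildtype libraries it was 16.6% for Gpx1, 16.2% for Txnrd1, 53.3% for Gpx4, 29.3% for Nfe2l2, 41.8% for Gclm and 59.8% for Gpx3. Gclm and Gpx3, the tested members with the fewest reads, varied most in APOE-KO.

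The surrounding pathway was examined in 7 lists, also chosen with earlier results of these data known. Of 121 tested genes over these lists, 4 rose (Sqstm1, Ftl1, Msrb1 and Cebpb) and 0 fell in edgeR's test, where 1.08% of all tested genes rose and 0.411% fell. At an unadjusted p under 0.05, 12 were higher and 5 lower, where 6.27% and 5.81% of all tested genes were. DESeq2 called 7 of the 121, and 297 of all 10714 genes, and limma-voom called 5 of the 121. The median log2 fold change over the 121 was 0.08, against -0.02 over all tested genes.

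**Figure D5:**
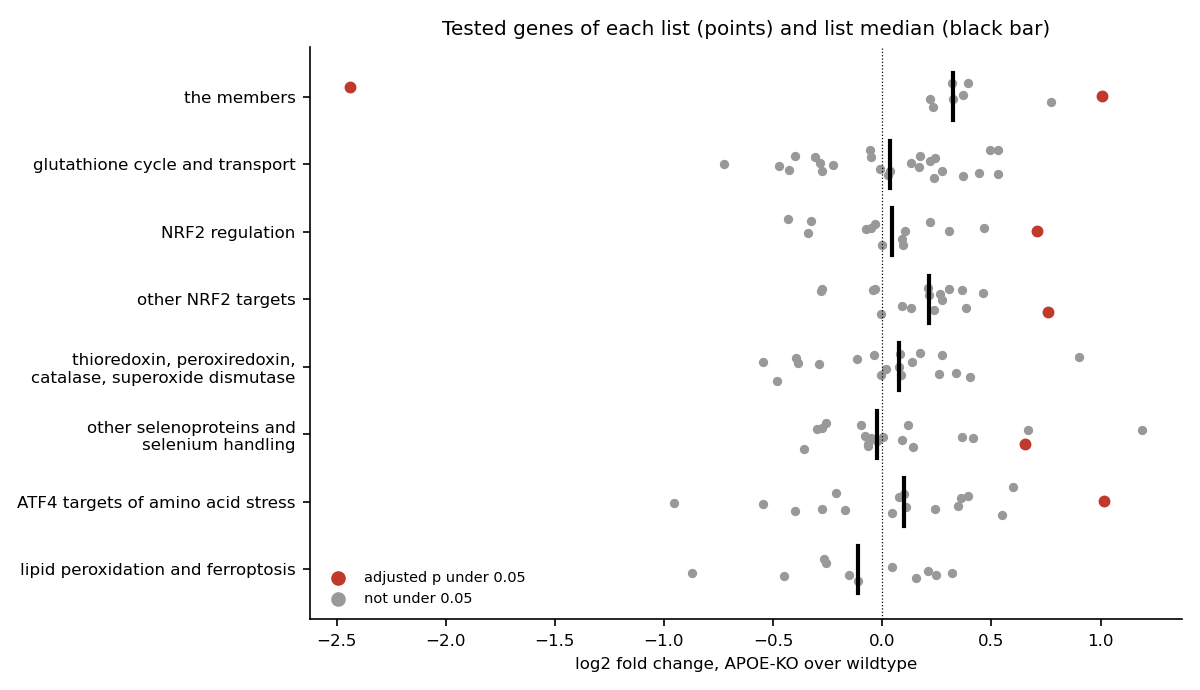
Log2 fold change, APOE-KO over wildtype, of every tested gene in each list (points, red where the adjusted p was under 0.05), with the list median as a black bar. The median is 0.32 for the tested members, 0.21 for the other NRF2 targets and -0.11 for lipid peroxidation and ferroptosis genes, and each list has at most 1 called gene besides the members' 2.

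In the list of glutathione cycle and transport genes 0 of 25 tested members were called by edgeR or limma-voom (2 higher at an unadjusted p under 0.05), and DESeq2 called 1, Gsto1. EdgeR called Gsto1 too when wildtype libraries 1 and 3 and APOE-KO library 5, a set picked by hand, were left out (log2 fold change 0.63, adjusted p = 0.0237). In the other 22 alternatives Gsto1 was not called. Gsto1, a glutathione transferase, had 121 ± 17.0 CPM in APOE-KO and 86.5 ± 14.5 CPM in wildtype (SD, n = 6 each), with an edgeR adjusted p of 0.103. Glrx3, a glutaredoxin of iron handling, was next at 1.36-fold and did not pass (edgeR adjusted p = 0.208), with 22.6% of its 3' words shared with Gm12669. Gsr, the reductase that regenerates glutathione, had a log2 fold change of -0.05 ± 0.19 (SE; edgeR adjusted p = 0.957), and was singled out after its values were seen.

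Among 14 tested NRF2 regulators 1 rose and 0 fell in edgeR's test (2 higher and 2 lower at an unadjusted p under 0.05). It was Sqstm1, which encodes p62, an autophagy adaptor that binds KEAP1 and is itself an NRF2 target. Sqstm1 ran from 215 to 341 CPM with a median of 307 in APOE-KO, and from 157 to 201 CPM with a median of 178 in wildtype, and the groups did not overlap. It rose 1.63-fold, a log2 fold change of 0.71 ± 0.13 (SE; edgeR adjusted p = 0.00254). The call was lost with the epithelial mean (adjusted p = 0.268, log2 fold change 0.71) or the macrophage mean (adjusted p = 0.150, log2 fold change 0.90) as a covariate and held in the other alternatives, over which the adjusted p went as low as 5.37e-06. Of its 3' words 17.2% are shared with Mrnip. Keap1 and Bach1, which restrain NRF2 and its targets and were singled out after their values were seen, had log2 fold changes of 0.10 ± 0.15 and -0.05 ± 0.16 (SE; edgeR adjusted p of 0.865 and 0.948). Bach2, second by p in this list, is a lymphocyte repressor and had 146 ± 42.5 CPM in APOE-KO and 197 ± 45.7 CPM in wildtype (edgeR adjusted p = 0.350).

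Of 17 other NRF2 targets 1 rose and 0 fell in edgeR's test, with 4 higher and 0 lower at an unadjusted p under 0.05, and 12 had a positive log2 fold change. It was Ftl1, the ferritin light chain, with 914 to 1377 CPM in APOE-KO and 505 to 832 CPM in wildtype, 1.69-fold higher (edgeR adjusted p = 0.00194). Its reads are uncertain in origin, since 73.9% of its 3' words occur in transcripts of 16 other annotated genes. Its call was lost with the epithelial mean in the fit (log2 fold change 0.80 ± 0.21, SE; adjusted p = 0.155) and with the macrophage mean (0.89 ± 0.23; adjusted p = 0.174), against 0.76 ± 0.13 without them. Fth1, the ferritin heavy chain, had 1788 ± 62.2 CPM in APOE-KO and 1372 ± 169 CPM in wildtype (SD, n = 6 each), groups that did not overlap, and an edgeR adjusted p of 0.0660. DESeq2 (adjusted p = 0.00967), limma-voom (0.0285), edgeR with robust dispersion (0.0483) and edgeR without wildtype library 3 (0.0370) called it. Hmox1, heme oxygenase and a classic NRF2 target, had a log2 fold change of -0.27 ± 0.19 (SE; edgeR adjusted p = 0.621) and was singled out after its values were seen.

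Thioredoxin, peroxiredoxin, catalase and superoxide dismutase genes had 0 of 19 tested members called by edgeR or limma-voom (1 higher and 1 lower at an unadjusted p under 0.05), and DESeq2 called Txnip, as did edgeR with no filter on low counts (adjusted p = 0.0357) and without wildtype library 5 (0.0416). Txnip, which inhibits thioredoxin, had 241 ± 17.9 CPM in APOE-KO and 352 ± 99.8 CPM in wildtype (SD, n = 6 each; edgeR adjusted p = 0.0754). Wildtype libraries 3 and 4 held 483 and 471 CPM of it, and the others 253 to 327. Sod3, the secreted superoxide dismutase, had 10.5 ± 4.38 CPM in APOE-KO and 5.62 ± 3.24 CPM in wildtype (SD, n = 6 each; edgeR adjusted p = 0.384).

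Gpx1, Gpx3, Gpx4 and Txnrd1 are selenoproteins, so the other selenoproteins and the selenium machinery were examined beside them. Of 19 tested, 1 rose and 0 fell in edgeR's test (1 higher and 1 lower at an unadjusted p under 0.05). It was Msrb1, a methionine sulfoxide reductase, with 77.7 to 110 CPM in APOE-KO and 46.2 to 73.3 CPM in wildtype, 1.57-fold higher (edgeR adjusted p = 0.0228). That call was marginal: it was lost in 9 of the 24 alternatives, among them each fit that left out APOE-KO library 3 or 5 or wildtype library 1, 4, 5 or 6, where the adjusted p reached 0.0805. Sepp1, the secreted selenium carrier selenoprotein P, had 329 ± 50.1 CPM in APOE-KO and 398 ± 34.0 CPM in wildtype (SD, n = 6 each; edgeR adjusted p = 0.356).

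Among 17 tested ATF4 targets 1 rose and 0 fell in edgeR's test, with 2 higher and 1 lower at an unadjusted p under 0.05. It was Cebpb, a transcription factor of myeloid and stress responses, with 26.0 to 67.0 CPM in APOE-KO and 12.8 to 23.9 CPM in wildtype, 2.02-fold higher (edgeR adjusted p = 0.0301). It did not pass when APOE-KO library 1, 4 or 6 or wildtype library 2, 4 or 5 was left out (log2 fold changes of 0.77 to 1.05, adjusted p reaching 0.145), against 1.02 ± 0.24 (SE) with all 12 libraries. Nor did it pass with the epithelial mean (0.72 ± 0.38; adjusted p = 0.916) or the macrophage mean (0.81 ± 0.43; adjusted p = 0.900) in the fit. Ddit3, which encodes CHOP, had groups that did not overlap, 35.9 ± 6.53 CPM in APOE-KO and 23.6 ± 4.93 CPM in wildtype (SD, n = 6 each), and an edgeR adjusted p of 0.166. Atf4 itself had a log2 fold change of 0.11 ± 0.14 and Chac1, a glutathione-degrading ATF4 target, -0.40 ± 0.46 (SE; edgeR adjusted p of 0.822 and 0.809); both were singled out after their values were seen.

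Lipid peroxidation and ferroptosis genes had 0 of 11 tested members called by edgeR, DESeq2 or limma-voom, and 0 at an unadjusted p under 0.05 in edgeR. Alox5ap, the activating protein of 5-lipoxygenase, had 251 ± 32.9 CPM in APOE-KO and 301 ± 62.9 CPM in wildtype (SD, n = 6 each; edgeR adjusted p = 0.451). Fdft1, squalene synthase, was low at 3.76 ± 1.31 CPM in APOE-KO and 6.81 ± 3.53 CPM in wildtype (SD, n = 6 each; edgeR adjusted p = 0.555), and all of its 3' words are shared with annotated transcripts of Ctsb.

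For the libraries as a whole, totals ran from 2381477 to 4898360 counts, so that 3 reads stood for 0.525 to 1.59 CPM. The 45S ribosomal RNA gene Rn45s took 11.3% to 21.6% of counts in APOE-KO and 2.71% to 32.2% in wildtype libraries, the lowest share being that of wildtype library 3. Apoe, the targeted gene (chromosome 7, 19696109 to 19699188, minus strand), had 2.75 to 10.7 CPM in APOE-KO and 409 to 531 CPM in wildtype, in the direction the labels give. Itgax, the gene of the bead target, was present in every library at 201 to 365 CPM. The marker sums of T cells, fibroblasts, neutrophils, adipocytes and conventional dendritic cells gave two-sided exact permutation p of 0.145 or above. Of the 12 conventional dendritic cell markers tested, 2 rose (Ccr7 and Sirpa) and 0 fell in edgeR's test.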

How the data were processed

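RNA of 12 libraries was sequenced with a Lexogen 3' kit, per the labels. The deposited table holds raw read counts per gene symbol, made by the authors and not normalised. STAR 2.7.8a, featureCounts 1.5.1, R 4.1.0, DESeq2 1.4 and build mm10 are named in the submitters' processing notes. The sources used here do not give the annotation, the strand setting or the treatment of reads with several matches, so overlapping or near-identical genes are uncertain. A 3' library does not count longer genes more often.

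Columns were matched to samples by the labels' short descriptions. The analysis used edgeR 4.0.16 (R 4.3.3): filterByExpr (minimum count 10, total 15) kept 10714 genes, TMM factors scaled the libraries, and glmQLFit and glmQLFTest compared genotypes over all 12 libraries, with Benjamini-Hochberg adjustment and a threshold of 0.05. CPM values use the scaled library sizes. Fold changes put APOE-KO over wildtype, and the SE comes from the log2 fold change and the square root of its F statistic. Single values were compared by exact permutation over 924 assignments, whose smallest p is 0.00216. Floors cover counting error only. Alternatives were other size factors and filters, DESeq2 1.42.0, limma-voom (limma 3.58.1), robust dispersion, a replicate block, marker covariates and fits without 1 or 3 libraries. The 3 libraries left out together were picked by hand and not by a stated rule. The code was tested on simulated data.

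The members, the gene lists and the tests were chosen with earlier results of these data known. Named genes are the 10 members, each list's called genes or, where fewer than 2 were called, its 2 of smallest p, the 3 genes of nearest profile (mean of at least 20 CPM, log2 CPM with prior count 2) to each called member, and Apoe. Positions and 3' sequence sharing come from GENCODE vM21 (GRCm38, the assembly mm10 names) and promoters from RefSeq GRCm38.p6.

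No 2 libraries of a genotype agreed within sampling noise.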

Additional observations from a re-analysis of the deposited data

Results flagged for a closer look

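Of 40 sets of 6 libraries examined (10 members and 10 marker sums in each genotype), 4 held a library far from the other 5. For normally distributed values, chance alone marks about 1 set in 20. The Nqo1 set of APOE-KO, with 0 reads in every library, could not be marked. None of the 4 was a set of member values.

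The epithelial marker sum was 122 CPM in APOE-KO library 4 and 8.90 to 42.7 CPM in the other APOE-KO libraries. The endothelial marker sum was 199.8 CPM in APOE-KO library 2, against 149 to 168 CPM in the other APOE-KO libraries. The B cell marker sum was 569 CPM in APOE-KO library 3, against 678 to 731 CPM in the others. The plasmacytoid dendritic cell marker sum was 3065 CPM in wildtype library 1, against 1363 to 1857 CPM in the other wildtype libraries.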

How the results depend on the processing

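Each result was recomputed under 24 alternatives. Of the 9 tested members Slc7a11, Gclm, Gclc, Txnrd1, Srxn1, Gpx1 and Nfe2l2 kept their direction and their side of the threshold in all 24. Gpx3 lost its call with the epithelial mean (-2.10) and with the macrophage mean (-1.26) as a covariate, and Gpx4, never called, turned to -0.14 and -0.078 in those fits; Fdft1, also never called, turned to 0.058 with the epithelial mean. The cause was not tested.

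The count of genes past the threshold was 160 (116 higher and 44 lower in APOE-KO). It was 297 (194 and 103) with DESeq2 and 100 (70 higher) with the replicate block, and 68 were lower with no filter on low counts. With the epithelial mean as a covariate it was 27 (17 and 10), and with the macrophage mean 19 (18 and 1). The count of pathway list genes past the threshold was 4 with edgeR, 7 with DESeq2 and 0 by edgeR with either covariate, with 8 or 11 higher and 1 lower at an unadjusted p under 0.05. Leaving out 1 library in turn gave 99 to 230 genes, 72 to 166 higher and 27 to 64 lower, and 2 to 6 pathway list genes. The lowest count, 99, came when APOE-KO library 3 was left out. The lower genes numbered 27 without that library, 27 without wildtype library 5 and 29 without the APOE-KO library 6. The 2 pathway list genes came without wildtype library 4.

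Same-numbered libraries did not deviate together (correlations of -0.0770 to 0.0185), so the numbers do not pair the libraries. With the replicate block Slc7a11 and Gpx3 kept their calls (adjusted p of 0.0232 and 0.0169), while Msrb1 did not (0.0501). Nqo1, with 12 reads in all, could not be tested at this depth.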
